A study of Bubalus bubalis with 12 samples.

Results

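The ruminal wall senses the products of fermentation through a small set of G protein-coupled receptors, and 7 of these receptors for fatty acids and related metabolites were examined here: FFAR2, FFAR3, FFAR4, HCAR1, HCAR2, LOC102400888 and OR51E2. The members were the rows of the expression table whose gene name equals 1 of these symbols. The table lists 34037 genes, and 4 of the 7 receptors had a row: FFAR3, FFAR4, HCAR1 and LOC102400888, the gene that the study names OR51E1. No row of the symbols FFAR2, HCAR2 and OR51E2 was found, and these 3 receptors were not analysed here. Whether any of them stands in the table under a LOC name was not worked out, so that the counts and the order of levels below cover only the 4 receptors found by symbol.

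The tissue was rumen wall of 12 Italian Mediterranean dairy buffaloes (Bubalus bubalis), with 1 stranded library of total RNA per animal and no pooling. The 6 control animals were fed a total mixed ration (TMR). The 6 treated animals were fed TMR in which green ryegrass made up 30% of the diet. All animals came from 1 commercial dairy and their slaughter had been planned beforehand, and the diets were matched in energy and nitrogen but not in the share of forage. The values are FPKM, the fragments counted for a gene relative to its length and to all fragments counted in that animal, and between 10531541 and 12948372 fragments were counted per animal.

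Short-chain fatty acids, mainly acetate, propionate and butyrate, are made by the ruminal microbes from plant fibre and starch and are absorbed across the stratified squamous epithelium of the wall. FFAR2 and FFAR3 are the classical receptors of these acids and inhibit adenylyl cyclase through Gi proteins. FFAR4 responds to longer fatty acids, HCAR1 to lactate, HCAR2 to butyrate and 3-hydroxybutyrate, and OR51E1 and OR51E2 are odorant receptors that respond to fatty acids and are also found outside the nose. The members are thus not all receptors of short-chain fatty acids in the strict sense.

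The wall holds several tissues, and markers of each were read from the same libraries. The summed FPKM of the squamous epithelium markers, of which 7 of 8 had a row (KRT14 had none), lay between 2703 and 4231 in the control and between 2500 and 4924 in the treated animals. The 8 smooth muscle markers summed to between 13.8 and 33.2 FPKM in the control and between 4.64 and 24.5 in the treated animals, with a mean log2 difference of -0.96 (two-sided exact permutation test over all 924 assignments of the animals, p = 0.0563). That p was the smallest among the marker sums and is not adjusted for their number. The smooth muscle list holds MYH11, DES and SYNPO2, which the study lists as lower in treated animals. Its list comes from these same animals, so that this p is no independent evidence on muscle content. The same exact permutation test gave p-values from 0.409 to 0.965 for the other sums. The myeloid markers (7 of 8 with a row, CD163 without) ranged from 21.0 to 34.7 and from 15.6 to 35.4 FPKM, and the 4 endothelial markers from 8.10 to 27.0 and from 5.42 to 28.4. Of the 7 adipocyte markers, ADIPOQ and LEP were at 0 in all 12 animals, PLIN1, PLIN4, LIPE and CIDEC stayed below 1 FPKM, and the sum, from 38.5 to 247 FPKM in the control and from 45.2 to 111 in the treated animals, was nearly all FABP4, a fatty acid-binding protein (37.7 to 246 and 44.6 to 111 FPKM). Of the 7 markers of enteric neurons and endocrine cells, ELAVL4, CHGB and SCG2 were at 0 in all 12 animals. SNAP25, UCHL1, RET and CHGA were detected at low levels, with highest values of 0.144, 0.561, 0.442 and 0.168 FPKM. The sum of the 7 did not exceed 0.667 FPKM in the control and 0.705 in the treated animals.

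A first question was whether each receptor is measured at all. The FPKM of a gene move in steps of 1 read, from which the reads behind each value were worked out, and 3 reads or fewer in an animal were taken as the floor. FFAR4 and LOC102400888 were above the floor in all 12 animals, with 981 and 1193 reads in total. HCAR1 was above it in 4 control and 3 treated animals, with 56 reads in total, and FFAR3 in 3 control and 0 treated animals, with 30 reads in total. By the median animal, no receptor was too low to measure in the control group, while HCAR1 (median of 3 reads) and FFAR3 (median of 1.5 reads) were too low to measure in the treated group. FFAR3 and HCAR1 had medians of only 3.5 and 7 reads in the control group, and with a floor of 10 reads both were too low in both groups.

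FFAR4, encoded by a gene with a counted length of 1568 bp (gene identifier 102414644), was the most abundant of the 4 receptors, at 4.30 FPKM on average over the 12 animals. In the control group the lowest animal had 2.22, the median was 4.82 and the highest had 7.36 FPKM, which stand for 45 to 145 reads. In the treated group the lowest animal had 2.54, the median was 3.15 and the highest had 4.73 FPKM, which stand for 48 to 89 reads. The high values came from control replicates 1 (7.36 FPKM), 2 (7.23) and 4 (5.43), which lay above every treated animal, while the lowest value of all belonged to control replicate 3. The groups therefore overlapped.

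LOC102400888 (gene identifier 102400888, counted length 3344 bp), the odorant receptor gene, was the second most abundant, at 2.43 FPKM on average. In the control group the lowest animal had 0.880, the median was 1.85 and the highest had 9.90 FPKM, from 31 to 416 reads. In the treated group the lowest animal had 0.373, the median was 1.32 and the highest had 2.93 FPKM, from 15 to 116 reads. Control replicates 1 (9.90 FPKM) and 2 (4.34 FPKM) were above every treated animal, and treated replicate 3 was below every control. The remaining animals of both groups lay in the same range. Control replicate 1 alone held 34.9% of all reads of this gene, and the highest animal was 26.5-fold above the lowest.

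HCAR1, the lactate receptor (gene identifier 102410663, counted length 2129 bp), averaged 0.182 FPKM. In the control group it ranged from 0.0740 to 0.399 FPKM with a median of 0.287, which are 2 to 11 reads. In the treated group it ranged from 0 to 0.277 FPKM with a median of 0.117, which are 0 to 7 reads. Treated replicates 4 and 6 had no read of HCAR1, treated replicate 1 had 1, and control replicates 4 and 5 had 2 each. Both groups thus held animals above and at the floor.

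FFAR3, a receptor of propionate and butyrate (gene identifier 102392380, counted length 2000 bp), was the lowest, at 0.105 FPKM on average. In the control group it ranged from 0.0398 to 0.285 FPKM with a median of 0.144, which are 1 to 6 reads. In the treated group it ranged from 0 to 0.125 FPKM with a median of 0.0601, which are 0 to 3 reads. Control replicates 4, 5 and 6 had 5, 4 and 6 reads, and these were the animals above the floor. Treated replicates 2 and 5 had no read, which allows up to 3 reads in each, and control replicates 1 and 3, with 1 and 3 reads, lay within the treated range.

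**Figure D1:**
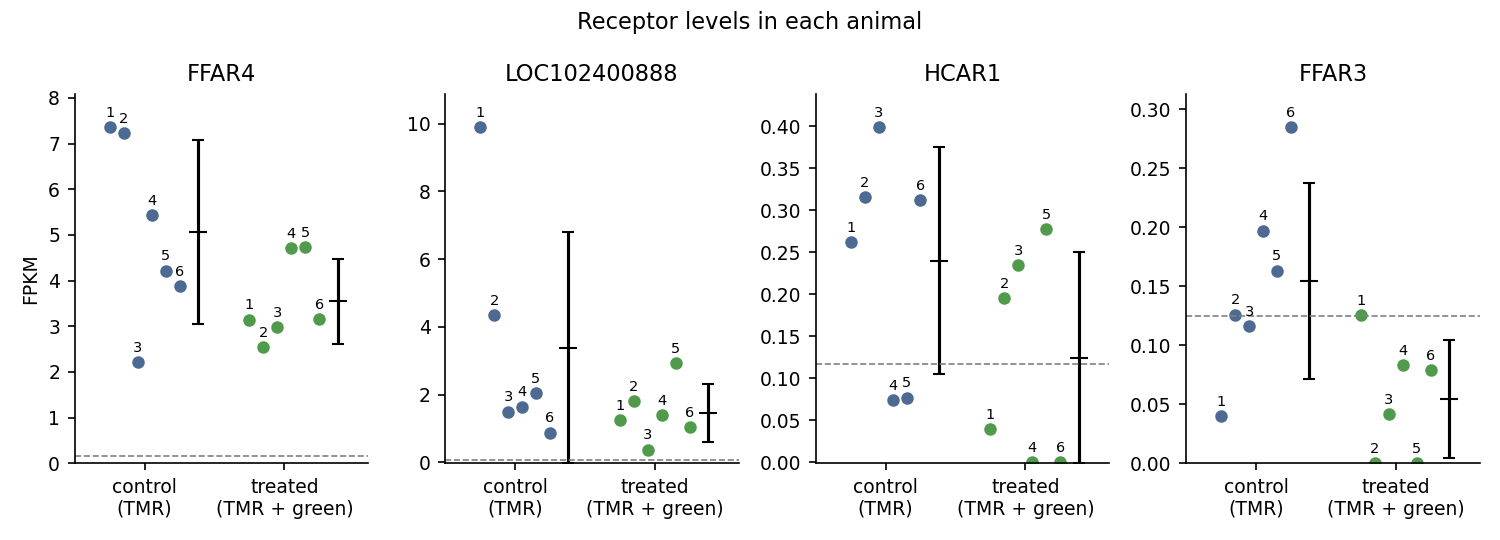
FPKM of the 4 receptors in each of the 6 control (blue) and 6 treated (green) animals, with the replicate number above each point, the group mean ± SD in black and the median value of 3 reads as a dashed line. FFAR4 and LOC102400888 lie above this line in all animals, with LOC102400888 of control replicate 1 at 9.90 FPKM, while HCAR1 and FFAR3 lie around it.

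The order of the levels was FFAR4, LOC102400888, HCAR1 and FFAR3, compared within animals per gene length. FFAR4 exceeded LOC102400888 in 11 of 12 animals, with a mean log2 ratio of FPKM of 1.21 ± 0.893 (SD) and an exact sign-flip permutation p of 0.000977. The exception was control replicate 1. Within the control animals the ratio was 0.96 and higher in 5 of 6 (exact p = 0.0625), and within the treated animals it was 1.47 and higher in 6 of 6 (exact p = 0.03125, the smallest that 6 animals allow). The order of these genes rests on their counted lengths, 1568 bp for FFAR4 and 3344 bp for LOC102400888. In reads LOC102400888 had more in total, 1193 against 981. The test covers the spread between animals and not an error in the lengths. LOC102400888 exceeded HCAR1 in 12 of 12 animals, with a mean log2 ratio of 3.90 ± 1.97 (SD) and an exact p of 0.000488, the smallest that 12 animals allow. Since HCAR1 was at 0 in 2 animals and at or below the floor in 5, the size of this ratio follows the pseudocount, and it was 2.91 with a pseudocount of 0.1. HCAR1 was above FFAR3 in 7 of 12 animals, and this last step was not tested because most values were near the floor. Among the 12769 genes tested between the diets, the mean level of FFAR4 was at the percentile 35 and that of LOC102400888 at the percentile 23.3.

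The comparison of the diets asks whether green feed goes along with other receptor levels. On average all 4 receptors were lower in the treated group, and none passed a test adjusted over all genes. FFAR4 was 5.05 ± 2.02 in the control and 3.54 ± 0.938 FPKM in the treated animals, and LOC102400888 was 3.39 ± 3.41 and 1.46 ± 0.859 FPKM (SD, n = 6 for each group). HCAR1 was 0.240 ± 0.135 and 0.124 ± 0.125 FPKM, and FFAR3 was 0.154 ± 0.0829 and 0.0547 ± 0.050 FPKM. For comparison, 48.8% of the genes tested and 50.2% of all genes above 0 had a lower mean log2 value in the treated group, so that a lower mean is the direction of about as many genes as a higher one. Bulk tissue does not tell fewer cells of a type from less RNA per cell.

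FFAR4 differed by a log2 fold change of -0.44 (SE 0.28, 95% interval -1.04 to 0.16), on the scale of log2(FPKM + 0.01), with a nominal limma p of 0.140, an exact permutation p of 0.180 and an adjusted p of 0.9996. LOC102400888 differed by -0.95 (SE 0.57, interval -2.17 to 0.27), with a nominal limma p of 0.116, an exact permutation p of 0.180 and an adjusted p of 0.9996. Neither difference was larger than the spread between animals. The same fit called 0 of 12769 genes (0.0%) at an adjusted p under 0.05, and 163 (1.28%) had a nominal p under 0.05, while limma with voom called 0 and 146. The study lists LOC102400888 among its differentially expressed genes, as lower in treated animals, by a nominal edgeR p under 0.05 on counts. It reports that no gene passed at an adjusted p under 0.05. Its list comes from these same animals, which is no independent evidence for a direction.

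The values of both genes depended on single animals. Without control replicate 3, the log2 fold change of FFAR4 was -0.65 (nominal limma p = 0.0149, exact permutation p = 0.0281). For LOC102400888 it was -1.24 without control replicate 6 (nominal limma p = 0.0455, exact permutation p = 0.0866), but -0.55 without control replicate 1 (exact permutation p = 0.364) and -0.61 without treated replicate 3 (exact permutation p = 0.361). A smooth muscle covariate, the mean log2(FPKM + 0.01) over the smooth muscle markers and not their sum, was added to the limma fit. With it the log2 fold change of FFAR4 was -0.17 and that of LOC102400888 was -0.79. The adjusted limma p was 0.9998 for both.

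HCAR1 and FFAR3 did not reach the 40 reads in at least 1 animal required for the main comparison, and their values come from a fit over all 22972 genes above 0. HCAR1 differed by a log2 fold change of -1.70 (SE 0.96, interval -3.76 to 0.36), with a nominal limma p of 0.0975, an exact permutation p of 0.143 and an adjusted p of 0.9998. FFAR3 differed by -1.77 (SE 0.77, interval -3.43 to -0.11), with a nominal limma p of 0.0388, an exact permutation p of 0.0433 and an adjusted p of 0.9998. FFAR3 was thus 1 of 4 receptors with a nominal p under 0.05. In that fit 562 of 22972 genes (2.45%) had such a p, and 291 (1.27%) had it with a lower value in the treated group.

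The size of the difference for FFAR3 cannot be read from these libraries. It rests on 22 reads in the control and 8 in the treated animals, and with pseudocounts of 0.1 and 1 the log2 fold change was -0.72 and -0.13 (exact permutation p = 0.0368 and 0.0346). The nominal limma p rose above 0.05 without control replicate 2, 3, 4, 5 or 6 and without treated replicate 2 or 5, up to 0.0861, with an exact permutation p of up to 0.0974 with an animal left out. The limma p was 0.10 with the smooth muscle covariate at a log2 fold change of -1.80. For HCAR1, with 37 reads against 19, the pseudocounts of 0.1 and 1 gave -0.70 and -0.14, and no animal left out brought the nominal limma p under 0.05.

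**Figure D2:**
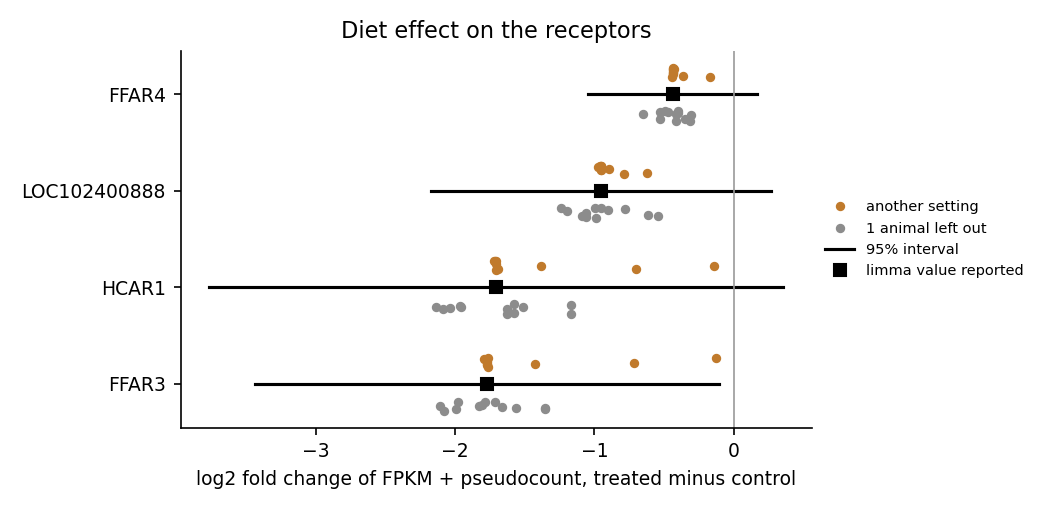
Log2 fold changes, treated minus control, of the 4 receptors: the limma value (square) with its 95% interval (line), the values with each animal left out (grey) and under other settings (orange). All values are below 0, the intervals of FFAR4, LOC102400888 and HCAR1 include 0, and the orange points of HCAR1 and FFAR3 near 0 are those with a pseudocount of 1.

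The 2 receptors measured in all animals differed in their spread between animals. The SD of log2 values within groups was 0.53 for FFAR4 and 1.1 for LOC102400888. The median SD of all genes tested was 0.36. Among the 1001 genes nearest in level, 75.2% varied less than FFAR4 and 95.9% varied less than LOC102400888. LOC102400888 was thus among the more variable genes of its level, and treated animals varied in it as well (SD of log2 values 0.98, against 1.24 in the control group).

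FFAR4 and LOC102400888 had their highest values in the same animals. Control replicates 1 and 2 were the highest for both, and treated replicate 5 was the highest treated animal for both. For FFAR4, treated replicate 4 was nearly as high as treated replicate 5 (4.70 against 4.73 FPKM). Over the 12 animals, Pearson's r of the log2 values was 0.689 (permutation p = 0.0127) and Spearman's rho was 0.622 (permutation p = 0.0353). Adjusted over the 13 relations computed, these p-values were 0.165 and 0.316. Without the animals farthest from the median of LOC102400888, control replicate 1 and treated replicate 3, r was 0.564. Within the groups r was 0.716 in the control (exact permutation p = 0.0958) and 0.437 in the treated animals (exact permutation p = 0.414). The other 12 relations set FFAR4 and LOC102400888 against the 6 marker sums, and the smallest adjusted permutation p among them was 0.316, for the rank correlation of LOC102400888 with the squamous epithelium markers (rho = 0.587, raw permutation p = 0.0486).

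**Figure D3:**
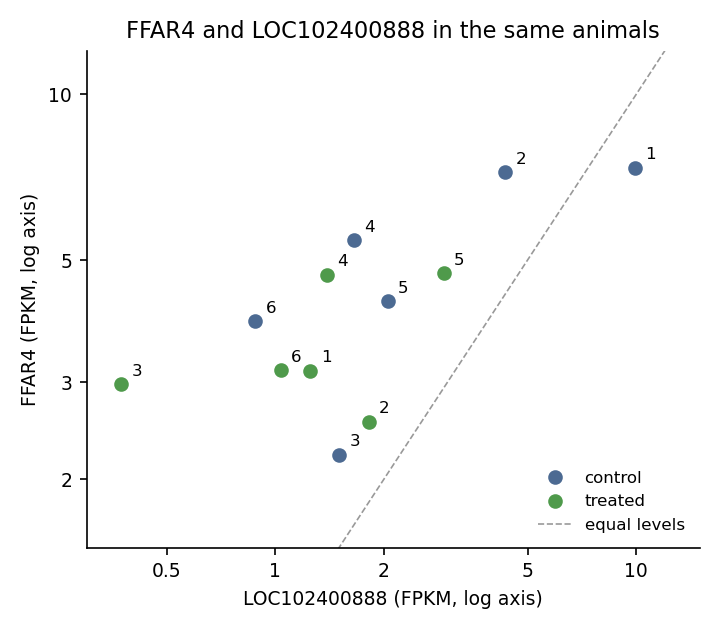
FFAR4 against LOC102400888 in FPKM on log axes, 1 point per animal with its replicate number, control in blue and treated in green, and equal levels as a dashed line. Control replicates 1 and 2 are at the upper right, and control replicate 1 is the animal below the line.

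The genes whose log2 values followed FFAR4 most closely over the 12 animals, among the genes tested, were PIGB, an enzyme of GPI anchor synthesis (Pearson's r = 0.851), LOC102400568 (0.820) and FIS1, a mitochondrial fission factor (0.809). For LOC102400888 they were SFXN1, a mitochondrial serine carrier (0.877), ANKRD40 (0.856) and MINDY4 (0.852). They had the highest r among the 12769 genes tested and are given as a description.

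The genes through which the receptors signal were read from the same fit. Of 35 genes of G protein coupling and receptor transport, 33 had a row (GNAQ and GNAS had none) and 21 were tested, while 12 were below 40 reads in every animal. Of the 21, 10 had a higher and 11 a lower treated mean, with a median log2 fold change of -0.01 against 0.005 over all genes tested. None of them had a nominal limma p under 0.05, the background being 1.28%. The inhibitory G protein subunits, to which FFAR3 and HCAR1 couple, were led by GNAI3 with 71.9 ± 2.84 FPKM in the control and 72.5 ± 7.18 in the treated animals. GNAI1 had 31.0 ± 5.80 and 29.3 ± 2.28 FPKM, and GNAI2 had 13.2 ± 3.44 and 12.7 ± 2.99 FPKM. PLCB3, a phospholipase activated by G proteins, had 19.0 ± 3.55 and 18.6 ± 4.91 FPKM (SD, n = 6 for each).

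The leading genes that carry or use the ligands were far more abundant per length than the receptors. Of 15 such genes, 14 had a row (LDHA had none) and 12 were tested, 6 with a higher and 6 with a lower treated mean, with a median log2 fold change of -0.03 and no nominal limma p under 0.05. SLC16A1, a carrier of short-chain monocarboxylates and lactate, had 677 ± 79.6 FPKM in the control and 617 ± 124 in the treated animals, and its chaperone BSG had 881 ± 193 and 886 ± 212. ACAT1, a mitochondrial thiolase of ketone body metabolism, had 580 ± 84.3 and 560 ± 123 FPKM.

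Of 10 related metabolite receptors, 8 had a row (GPR42 and HCAR3 had none), and none of the 8 reached the 40 reads needed for the test. SUCNR1, the succinate receptor, had 0.729 ± 0.798 FPKM in the control and 0.548 ± 0.258 in the treated animals (exact permutation p = 0.762), and GPR35 had 0.473 ± 0.321 and 0.436 ± 0.351 (exact permutation p = 0.896). OXGR1, GPR119 and CASR were at 0 in all 12 animals, which allows up to 3 reads in each. Of 8 hormones and hormone-related genes that such receptors are known to act on in gut or fat, 7 had a row (PYY had none) and only ANGPTL4, a lipase inhibitor, was tested, at 6.68 ± 0.794 and 6.17 ± 1.5 FPKM with a log2 fold change of -0.14 (SE 0.16) and an adjusted limma p of 0.9996. GCG, LEP and GHRL were at 0 in all 12 animals.

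**Figure D4:**
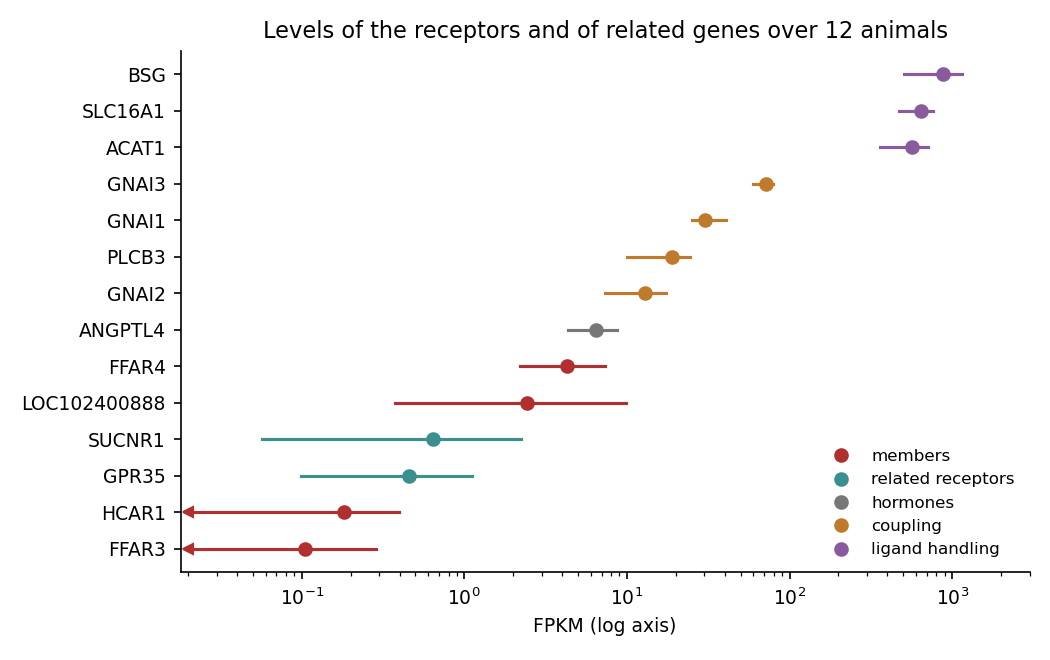
Mean FPKM over the 12 animals (points) with the lowest and the highest animal (line ends) on a log axis, for the 4 receptors (red) and the most abundant genes of the 4 related lists. Arrows mark a lowest value of 0. The ligand-handling genes lie between 359 and 1152 FPKM, the receptors between 0 and 9.90.

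All 4 receptors were found by gene identifier in the RefSeq annotation of NDDB_SH_1, which is another assembly than that of the files and was used only for neighbouring protein-coding genes. FFAR3 lies beside FFAR1, a receptor of longer fatty acids, and beside LOC102401562, which was at 0 in all 12 animals. FFAR1 was above 0 in 1 treated animal (0.266 FPKM) and at 0 in the other 11. The reads behind a gene above 0 in only 1 animal cannot be worked out from its values. FFAR4 lies between CEP55 and RBP4, the retinol carrier of plasma. RBP4 had 110 ± 52.8 FPKM in the control and 76.8 ± 34.9 in the treated animals (exact permutation p = 0.242). HCAR1 lies between DENR and LOC102410337, a gene with only a LOC name in the table. Whether LOC102410337 is a receptor that was not found by its symbol was not worked out. LOC102410337 had 7.14 ± 1.96 and 8.01 ± 3.16 FPKM (exact permutation p = 0.684), well above HCAR1 in every animal. LOC102400888 lies between TRIM68 and LOC102408879, which was at 0 in all 12 animals. Within its span, LOC102406614 was above 0 in 1 treated animal (0.0657 FPKM) and at 0 in the other 11. The odorant and hydroxycarboxylic acid receptors belong to families of similar genes, and reads of low mapping quality were left out in counting, so that their levels are uncertain where copies are nearly identical.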

How the data were processed

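Total RNA of the ruminal wall was sequenced from 6 control and 6 treated buffaloes. The authors used Trimmomatic 0.39 for trimming, STAR 2.5.2b for alignment to UOA_WB_1 and featureCounts 2.0.0 for stranded counting per gene. The authors deposited FPKM, and the tool and gene lengths behind them are not given in the sources used here. Of its 16 value columns, 12 carry the name of a sample title and 4 do not and were not used.

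The reads behind each FPKM were worked out from the steps of the values, with whole reads within 0.01 of a read for 99.996% of genes above 0. The counted fragments, between 10531541 and 12948372 per animal, limit the precision, and floors cover counting error only.

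The diets were compared by limma 3.58.1 (R 4.3.3, with a variance trend) on log2(FPKM + 0.01), for 12769 genes with at least 40 reads in at least 1 animal and Benjamini-Hochberg adjustment over them, and, for members below this, over all 22972 genes above 0. Exact permutation tests were two-sided, over 924 assignments (smallest p 0.00216) for single genes and over sign flips within animals for the order of levels. A nominal p under 0.05 was used to sort the alternatives, as the study used nominal p-values. Correlations over 12 animals used permutation p-values. The limma code was tested on simulated data. Python 3.11.15, numpy 2.4.6, scipy 1.17.1, pandas 2.3.3 and matplotlib 3.10.9 were used.

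The members, gene lists and marker lists were chosen with earlier results of these data known, and 2 genes of these lists are not reported here. Named were all members, of each list the genes with the highest mean FPKM and those without a row, any list gene with a nominal p under 0.05, and, for FFAR4 and LOC102400888 (more than 3 reads in every animal), the 3 most correlated of all genes tested. Alternatives were pseudocounts of 0.1 and 1, all genes above 0, at least 0.1 FPKM in at least 6 animals, median ratio and TMM scaling, robust empirical Bayes, voom, a smooth muscle covariate, the replicate number as a block, each animal left out, and floors of 5 and 10 reads.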

Additional observations from a re-analysis of the deposited data

Results flagged for a closer look

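In 52 groups of 6 animals (the receptors, the named genes of the related lists, the genes most like the receptors and the marker sums, with groups at a single value left out), the gap between the most extreme animal and the next was set against the range of the group, and 4 groups exceeded Dixon's 95% critical value, which chance alone exceeds in about 5% of groups. None of the 4 was a receptor group. BSG was 502.7 FPKM in control replicate 6, while the other control animals had at least 908 FPKM. SUCNR1 was 2.246 FPKM in control replicate 6, while the other control animals had at most 0.783 FPKM. GPR35 was 1.122 FPKM in treated replicate 4, while the other treated animals had at most 0.489 FPKM. The sum of the adipocyte markers was 246.7 FPKM in control replicate 4, while the other control animals had at most 96.0 FPKM, and nearly all of this sum was FABP4 (246 FPKM). LOC102400888 in control replicate 1, at 9.90 FPKM, had a gap of 0.616 of the range, just under the critical value.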

How the results depend on the processing

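The log2 fold changes of the 4 receptors stayed negative under every alternative run. The nominal limma p of FFAR3 was no longer under 0.05 with the smooth muscle covariate (-1.80) or when genes needed 0.1 FPKM in 6 animals (-1.77), and with an animal left out its value ranged from -2.10 to -1.35. With an animal left out, FFAR4 ranged from -0.65 to -0.31 and LOC102400888 from -1.24 to -0.55, and each came under a nominal p of 0.05 once. HCAR1 kept its side of the threshold in all alternatives. The number of genes with a nominal p under 0.05, 163, was 562 for all genes above 0, where more genes were tested, 301 when genes needed 0.1 FPKM in 6 animals, and between 144 and 332 with an animal left out, the highest without treated replicate 6; the cause was not tested. Among the 12769 genes no alternative gave an adjusted p under 0.05. Over all genes above 0, 0 genes passed with all animals, but 1 to 6 passed in 7 of the 12 fits with an animal left out, none of them a receptor (smallest adjusted p of FFAR3 and HCAR1 0.893).

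With the replicate number of the labels as a block, FFAR3 was at -1.77 with a limma p of 0.0571 and 326 genes had a nominal p under 0.05. Same-numbered animals are different animals, and the sample titles carry other numbers than the labels for some of them. The deviations of same-numbered animals correlated by 0.209 on average, over 0.1 in 4 of 6 pairs, against -0.0388 on average between other numbers. Of the controls, 3 of 6 correlated best with their own number, and this replicate block was not taken as a pairing.

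The mean log2 ratio of FFAR4 to LOC102400888 was 0.96 in the control animals alone (exact p = 0.0625). With floors of 5 and 10 reads, 1 and 2 receptors were too low in the control group in place of 0. The depth limits FFAR3 and HCAR1 most.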
